A study of Homo sapiens with 6 samples.

Results

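MESD, the chaperone of the LDL receptor-related proteins (LRPs), was followed with 8 related genes in RNA-seq libraries of SK-BR-3. SK-BR-3 is a human breast cancer line that overexpresses HER2. The 9 genes were chosen by symbol from the 30327 genes of the count table, and all 9 were found there. MESD was chosen because it was higher in the libraries labelled si_GRB2, so its difference between the groups is described here and not tested. LRP1, LRP4, LRP5, LRP6, LRP8, LRP10 and VLDLR were named with it as receptors of the family, and LRPAP1 as a chaperone of such receptors. The rule uses no value of theirs. The 6 libraries comprised 3 from cells that received nontargeting siRNA (si_NC) and 3 labelled si_GRB2, for an siRNA against GRB2. The sample titles and the genotype label of the latter name GRB2 overexpression instead. GRB2 had 123.9, 129.5 and 125.7 CPM in si_NC and 27.8, 28.1 and 29.6 CPM in si_GRB2, so every library labelled si_GRB2 was far below every control. CPM are reads of a gene per 1000000 counted reads of its library, with library sizes adjusted by TMM normalization.

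The LDL receptor family consists of surface proteins built from cysteine-rich repeats and YWTD β-propellers that fold with difficulty in the endoplasmic reticulum. MESD is the endoplasmic reticulum chaperone that folds these propellers and is needed for LRP5 and LRP6 to reach the surface, where they act as co-receptors of Frizzled in Wnt/β-catenin signaling. LRPAP1, also called RAP, is a second chaperone of the same compartment that keeps ligands from binding LRP1 and related receptors too early. LRP1 is an endocytic and signaling receptor, LRP8 and VLDLR are the reelin receptors, LRP4 binds agrin and sclerostin, and LRP10 is a more distant family member that moves between the Golgi and endosomes.

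MESD (ENSG00000117899.11) is a minus-strand gene of chromosome 15 that spans 80946289 to 80989828 in GRCh38. GENCODE 44 lists 7 transcripts for it, of which 2 are protein-coding and 3 are marked for nonsense-mediated decay, and the gene counts do not separate them. The window around the start of MESD, from 250 bases before to 50 bases after it, is shown with that of LRP10, the most abundant member, as both genes were higher in si_GRB2. The sequences are those of RefSeq on GRCh38.p14, printed in the direction of transcription, with capitals for any match to the motifs named after them.
MESD promoter, chr15:80989770-80990069, minus strand: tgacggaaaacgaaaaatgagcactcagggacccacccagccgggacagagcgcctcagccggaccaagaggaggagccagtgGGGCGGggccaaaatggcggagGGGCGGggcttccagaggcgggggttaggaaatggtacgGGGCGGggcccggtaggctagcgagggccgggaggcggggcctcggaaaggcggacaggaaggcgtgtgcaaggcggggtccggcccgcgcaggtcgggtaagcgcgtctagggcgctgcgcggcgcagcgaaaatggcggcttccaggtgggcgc
LRP10 promoter, chr14:22871490-22871789, plus strand: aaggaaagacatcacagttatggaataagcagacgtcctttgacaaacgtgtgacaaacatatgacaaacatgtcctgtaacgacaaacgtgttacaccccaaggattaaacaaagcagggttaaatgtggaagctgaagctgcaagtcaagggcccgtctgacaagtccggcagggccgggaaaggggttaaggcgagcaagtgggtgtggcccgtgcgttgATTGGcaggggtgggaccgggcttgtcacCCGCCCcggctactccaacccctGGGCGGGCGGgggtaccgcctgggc

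Both strands were searched for the TATA box, spelled TATAAA, and for the CCAAT box, which is spelled as it is named. The GC box was searched as the letters GGGCGG. The cAMP response element was searched as TGACGTCA. The E-box was searched as the letters CACGTG, and the TCF/LEF element, through which β-catenin acts, was searched as the letters CTTTGAT. The endoplasmic reticulum stress element, whose motif begins with a CCAAT box, was searched as well. The MESD window held 3 GC boxes, which began 167, 145 and 106 bases before the start, and no match to the other motifs. The LRP10 window held 3 GC boxes, 2 of which overlap, and 1 CCAAT box on the opposite strand. Of 35116 windows of the same length in the table, 45% held a GC box and 34.6% a CCAAT box, while 0.0769% held the stress element. G and C made up 70.3% of the MESD window and 56.3% of the LRP10 window, with a median of 58.7% over all windows. Of the 9 genes, 7 had a window in the table, and LRP4 and LRP6 had no entry.

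In si_NC, MESD had 32.1, 33.9 and 32.5 CPM, and in si_GRB2 it had 56.8, 57.4 and 56.5 CPM. The 3 values of each group lay close together and the groups were far apart. The means were 32.8 ± 0.941 and 56.9 ± 0.493 CPM (SD, n = 3). MESD was thus 1.73-fold higher, or 0.79 on the log2 scale, with a standard error (SE) of 0.04. By log2 fold change MESD ranked 135 of the 15801 genes tested. These values are the ones by which MESD was selected. CEMIP overlaps the 3′ end of MESD on the opposite strand but had 4 reads over the 6 libraries, and a long noncoding RNA that overlaps it on the same strand had 21 reads, against 7113 reads of MESD.

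**Figure D1:**
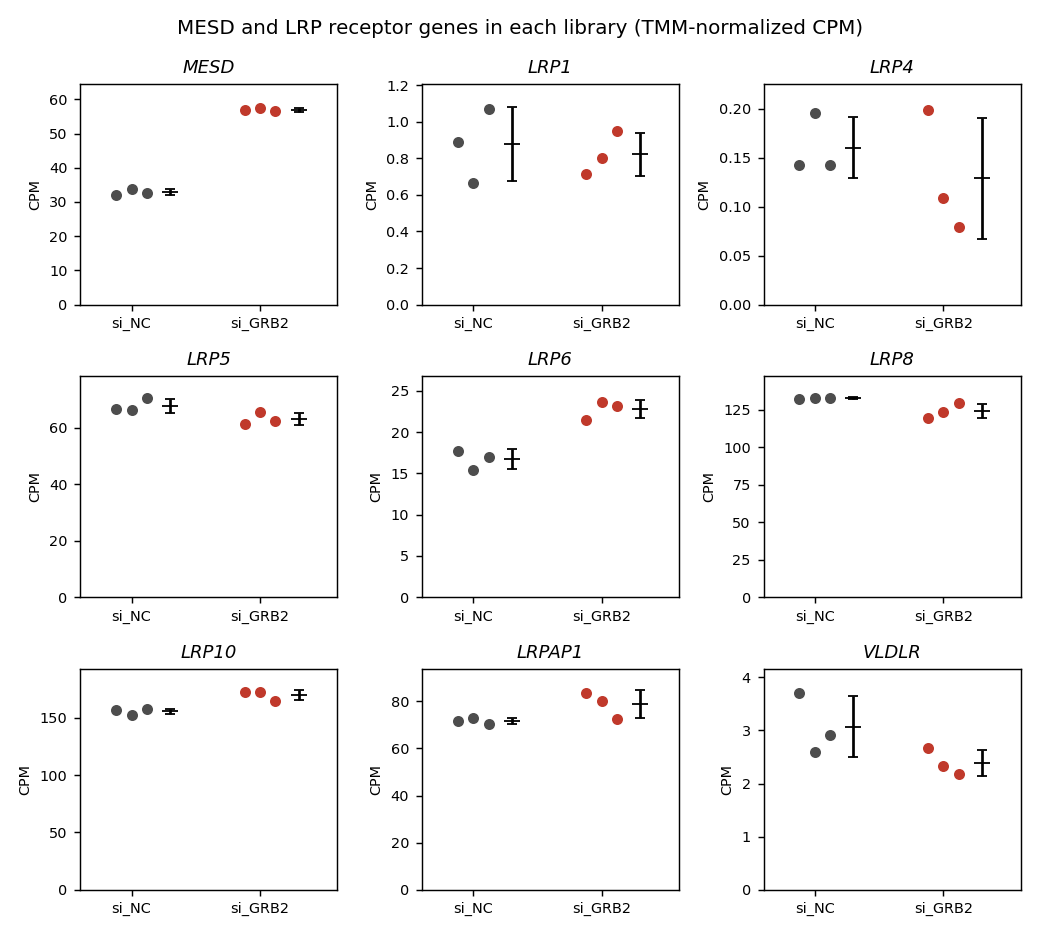
TMM-normalized CPM (y axis, from 0, a scale per gene) of the 9 genes in each si_NC and si_GRB2 library. Points are libraries, and the line with bars gives the mean and SD of 3 libraries. The MESD values of si_GRB2 sit between 56.5 and 57.4 CPM, all above si_NC, while those of LRP1 and LRP4 stay near or below 1 CPM in both groups.

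Of the 8 other genes, 7 had enough reads to be tested, and 4 of them had an adjusted p under 0.05 (edgeR's quasi-likelihood test), 3 higher and 1 lower in si_GRB2. Over all 15801 genes tested, 30.6% passed that threshold, 15.2% higher and 15.5% lower. None of the 7 (0 genes) passed the limits of the study's methods, which ask for more than a 1.5-fold difference in either direction, taken here together with an adjusted p under 0.01. Of all genes, 2.52% passed those limits. At an unadjusted p under 0.05, edgeR gave 5 of the 7 genes, and 39.4% of all genes.

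LRP6, the co-receptor most studied as a client of MESD, rose the most of these genes. It had 17.7, 15.4 and 17.0 CPM in si_NC and 21.5, 23.7 and 23.2 CPM in si_GRB2, without overlap between the groups. The log2 fold change was 0.45 (SE 0.06, edgeR adjusted p = 6.24e-05), or 1.36-fold, and the call held in all 15 alternative fits. Its exons share no bases with another annotated gene.

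LRP5, the closest paralog of LRP6 and the other Wnt co-receptor, did not rise with it. LRP5 had 66.4, 66.2 and 70.6 CPM in si_NC and 61.3, 65.5 and 62.5 CPM in si_GRB2. The si_GRB2 values were all slightly below those of si_NC, by a log2 fold change of −0.10 (SE 0.04) that did not pass the test (edgeR adjusted p = 0.0746). The ratio of LRP6 to LRP5 was therefore formed within each library, a comparison that was added after the values were seen. In CPM the ratio was 0.267, 0.233 and 0.241 in si_NC and 0.351, 0.361 and 0.372 in si_GRB2. Because LRP6 was higher and LRP5 lower in every si_GRB2 library, all 3 si_GRB2 ratios had to lie above all si_NC ratios. The two-sided exact permutation p of 0.1, the smallest that 3 libraries against 3 allow, was thereby fixed and adds no support.

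LRP10 rose slightly. It had 156.7, 152.8 and 157.3 CPM in si_NC and 172.7, 172.1 and 164.6 CPM in si_GRB2, with no overlap. The log2 fold change was 0.13 (SE 0.03, edgeR adjusted p = 0.00481) and passed in all 15 alternative fits.

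LRPAP1, the other chaperone of the group, had 71.8, 73.0 and 70.4 CPM in si_NC and 83.8, 80.3 and 72.3 CPM in si_GRB2. Replicate 3 of si_GRB2 lay among the control values, so the groups overlapped. The log2 fold change of 0.14 (SE 0.05) passed narrowly (edgeR adjusted p = 0.0373). It was lost in 5 of the 6 fits that left out 1 library, which gave log2 fold changes from 0.09 to 0.19, and the edgeR adjusted p without si_GRB2 replicate 1 was 0.189. The call was kept only without si_GRB2 replicate 3, at an edgeR adjusted p of 0.00314.

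LRP8, a receptor of reelin and apolipoprotein E, had 131.8, 132.9 and 133.1 CPM in si_NC and 119.7, 123.6 and 129.3 CPM in si_GRB2. Its groups did not overlap, but the si_GRB2 libraries spread more widely than the controls. The log2 fold change was −0.09 (SE 0.03, edgeR adjusted p = 0.0428). The call was lost in 4 of the 6 fits that left out 1 library, namely each of those without si_NC replicate 2, si_NC replicate 3, si_GRB2 replicate 1 or si_GRB2 replicate 2, and the edgeR adjusted p reached 0.175. MAGOH-DT, a noncoding gene on the opposite strand, shares 1046 exon bases with LRP8 and had reads equal to 4.36% of those of LRP8.

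The remaining receptors had few reads. VLDLR, the second reelin receptor, had 3.71, 2.59 and 2.92 CPM in si_NC and 2.66, 2.33 and 2.17 CPM in si_GRB2, and the groups overlapped. Its log2 fold change was −0.37 (SE 0.17, edgeR adjusted p = 0.13). LRP1 had 136 reads over the 6 libraries, 25, 17 and 30 in si_NC and 18, 22 and 24 in si_GRB2, and its log2 fold change of −0.10 had a SE of 0.27 (edgeR adjusted p = 0.832). At that depth a change of the size seen in LRP6 was not detectable in LRP1. STAT6 overlaps LRP1 on the opposite strand by 59 exon bases and had 8247 reads. LRP4 had 4, 5 and 4 reads in si_NC and 5, 3 and 2 reads in si_GRB2, too few to be tested.

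Leaving out MESD, which was chosen for its rise, 4 of the 7 genes tested had no overlap between the groups, 2 with every si_GRB2 library higher (LRP6 and LRP10) and 2 with every si_GRB2 library lower (LRP5 and LRP8). Over all genes tested 42.3% had no overlap, 21.1% higher and 21.2% lower in si_GRB2.

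**Figure D2:**
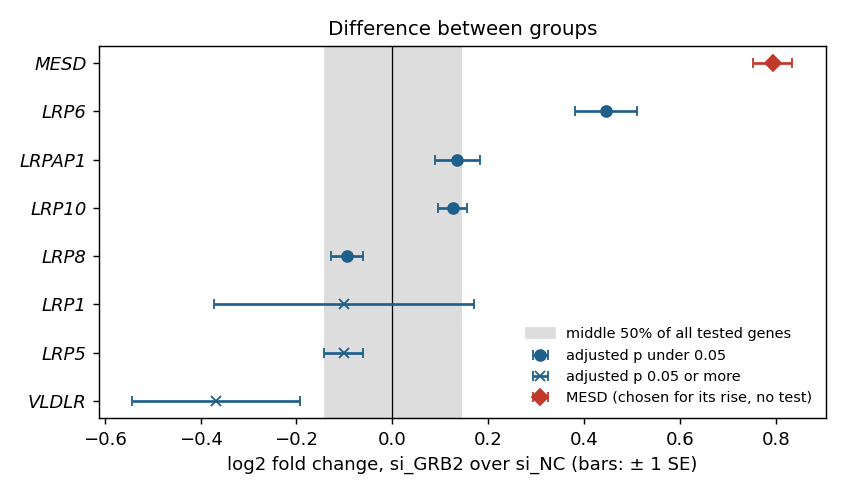
Log2 fold change of si_GRB2 over si_NC (x axis) of the 8 genes with enough reads, with bars of 1 SE. The grey band holds the middle 50% of all tested genes, and MESD at 0.79 and LRP6 at 0.45 lie to the right of it, while LRP5, LRP8 and LRP10 lie within it.

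The members were next ordered by level with the deposited FPKM, which divide reads by gene length. For these 9 genes the FPKM were proportional, to within the rounding of the file, to reads per kilobase of the merged GENCODE 44 exons, so isoforms shorter than the merged gene are understated. LRP10 was the most abundant, from 17.1 to 20.5 FPKM over the 6 libraries. LRP5 followed with 7.95 to 9.54 FPKM, and both were clear of their neighbors. LRP8 (4.88 to 5.66 FPKM), LRPAP1 (4.74 to 5.75 FPKM) and MESD (3.35 to 6.52 FPKM) overlapped. LRP6 was lower, from 1.18 to 1.93 FPKM, and VLDLR (0.11 to 0.17 FPKM), LRP1 (0.03 to 0.04 FPKM) and LRP4 (0.01 to 0.02 FPKM) were close to the 2-decimal resolution of the file. By this measure the RNA levels of the 2 chaperones lay between those of the Wnt co-receptors LRP5 and LRP6. For LRPAP1 this rests on the lengths used, 11816 merged exon bases against 6182 for LRP5. In CPM, not divided by length, the means over the 6 libraries were 75.3 for LRPAP1 and 65.4 for LRP5. MESD, at 44.9 CPM, was between LRP5 and LRP6 (19.8 CPM) there too.

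**Figure D3:**
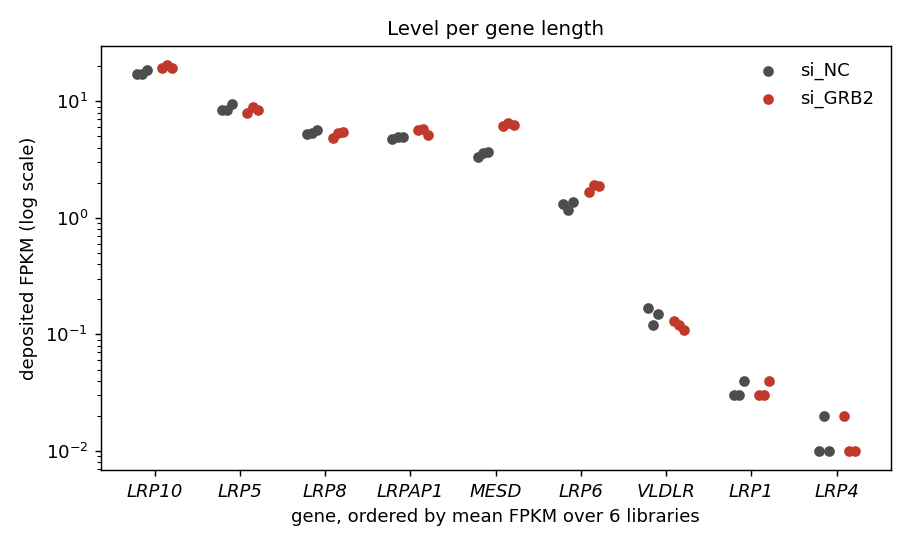
Deposited FPKM (log y axis) of each gene in the 6 libraries, ordered by the mean over all of them. LRP10 lies above 17 FPKM and LRP4 at 0.01 to 0.02 FPKM, and MESD is below LRP8 and LRPAP1 in si_NC and above both in si_GRB2.

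The place of MESD in that order differed between the groups. In si_NC it ranked 5 of 9, and its 3.35, 3.62 and 3.65 FPKM were all below those of LRPAP1 (4.74, 4.91 and 4.98 FPKM) and LRP8 (5.22, 5.37 and 5.66 FPKM). In si_GRB2 it ranked 3 of 9, and its 6.11, 6.52 and 6.33 FPKM were above those of LRPAP1 (5.69, 5.75 and 5.12 FPKM) and LRP8 (4.88, 5.31 and 5.49 FPKM). No other gene of the 9 changed places except LRP8, which MESD and LRPAP1 passed, and LRP8 and LRPAP1 overlapped in si_GRB2. Relative to its Wnt co-receptor clients, MESD had 0.351 ± 0.0202 FPKM (SD, n = 3) per FPKM of LRP5 and LRP6 together in si_NC and 0.616 ± 0.0183 (SD, n = 3) in si_GRB2. Relative to LRPAP1 it had 0.726 ± 0.0165 and 1.15 ± 0.0822 (SD, n = 3 each). These ratios contain the rise by which MESD was chosen and carry no test.

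**Figure D4:**
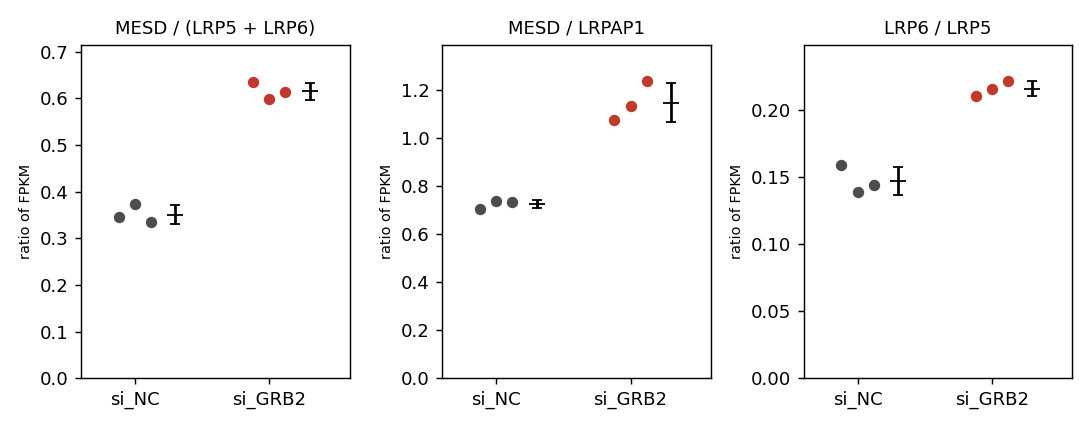
Ratios of FPKM within each library (y axes, from 0), with points for libraries and the mean and SD of 3 libraries. MESD per LRP5 and LRP6 lies near 0.351 in si_NC and 0.616 in si_GRB2, and LRP6 per LRP5 lies near 0.147 and 0.216, without overlap in any of the 3 panels.

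The genes around MESD on chromosome 15 were mostly too low to compare. Of the 5 nearest genes on each side that are in the count table, 2 had enough reads to be tested. TLNRD1, an actin-bundling protein gene 11.1 kb from MESD, had 14.3, 13.2 and 12.9 CPM in si_NC and between 10.8 and 12.4 CPM in si_GRB2. It fell without overlap, with a log2 fold change of −0.24 (SE 0.08, edgeR adjusted p = 0.0311). ABHD17C, a depalmitoylating enzyme gene on the other side at 190.7 kb, had a log2 fold change of 0.07 (SE 0.06, edgeR adjusted p = 0.378). The other 8 neighbors, CEMIP, ARNT2, CFAP161, IL16 and 4 noncoding genes, had between 4 and 61 reads over the 6 libraries and were not tested. Among them ARNT2, a transcription factor gene with 56 reads in all, had 8, 7 and 5 reads in si_NC and 17, 8 and 11 reads in si_GRB2. These are too few to compare the groups.

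The genes whose profile over the 6 libraries was closest to that of MESD were found by the root mean square difference of log2 CPM, each gene centered on its own mean, among 10623 other genes with a mean of at least 5 CPM. They were PLA2G12A, a secreted phospholipase (difference 0.05, log2 fold change 0.72), KPNA5, an importin α (0.05 and 0.85), MAPRE3, a microtubule end-binding protein (0.05 and 0.71), DCP2, the mRNA decapping enzyme (0.06 and 0.70), and TRPS1, a GATA-type transcription factor (0.06 and 0.69). The 6 libraries form 2 groups, so any gene with a rise of this size comes near. Among the other members, LRP6 was nearest at a difference of 0.20 and ranked 204, LRPAP1 and LRP10 ranked 2338 and 2347, and LRP8 and LRP5 ranked 7468 and 7619.

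Genes that act with MESD and its clients were counted from lists by function. Of the other LDL receptor family genes, 6 of 8 were tested, with 1 higher and 1 lower (33.3% called, beside 30.6% of all genes). SORL1, a sorting receptor, fell from 76.6 ± 1.09 to 70.1 ± 3.27 CPM (mean ± SD, n = 3), with a log2 fold change of −0.13 (SE 0.04, edgeR adjusted p = 0.0223). LDLRAD3 had a log2 fold change of 0.15 and did not pass. LRP1B and LRP2 had 2 and 5 reads over the 6 libraries.

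Over all Wnt lists together, 57 of 95 genes were tested, of which 13 were higher, 6 lower and 38 not called (adjusted p under 0.05, edgeR's quasi-likelihood test). That is 33.3% called, beside 30.6% of all genes, and the median log2 fold change was −0.01, beside 0.0019 over all genes. Passing the limits of the study's methods were 0 higher (0.829% of all genes) and 4 lower (1.69% of all genes), namely FZD6, KREMEN2, CCND1 and CD44.

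Among Wnt ligands and the genes of their secretion, 11 of 21 were tested and only WNT5A was called, lower with a log2 fold change of −0.35 (SE 0.06). That is 9.09% called, beside 30.6% of all genes. Some tested genes had few reads, with means of 0.708 CPM for WNT2B, 0.639 CPM for WNT3 and 0.479 CPM for WNT10B. WNT7B, the most abundant ligand, had 74.9 ± 1.63 CPM in si_NC and 71.1 ± 2.90 CPM in si_GRB2 (SD, n = 3) and did not pass (log2 fold change −0.08), and neither did WNT4 (−0.06). Among Frizzled and other Wnt receptors, 9 of 13 were tested and only FZD6 was called (11.1%, beside 30.6% of all genes). FZD6 fell from 16.3 ± 0.739 to 10.3 ± 1.01 CPM (mean ± SD, n = 3), with a log2 fold change of −0.66 (SE 0.08). RYK (−0.07) and FZD3 (−0.10) did not pass, and FZD7 had a mean of only 0.593 CPM.

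Secreted and surface regulators of Wnt signaling moved in both directions, with 3 of 10 tested genes higher and 1 lower (40% called, beside 30.6% of all genes, 15.2% higher and 15.5% lower). Their median log2 fold change was −0.04. The Kremen proteins, which bind Dickkopf together with LRP6, went opposite ways. KREMEN1 rose from 5.54 ± 0.601 to 8.07 ± 0.434 CPM (mean ± SD, n = 3), with a log2 fold change of 0.54 (SE 0.11, edgeR adjusted p = 0.00129). KREMEN2 fell from 10.4 ± 1.15 to 6.78 ± 0.231 CPM (mean ± SD, n = 3), with a log2 fold change of −0.62 (SE 0.10, edgeR adjusted p = 0.00017). LGR4, an R-spondin receptor, rose by a log2 fold change of 0.23, and NOTUM, a Wnt-inactivating lipase of low abundance, by 0.62, while ZNRF3 had 0.11 and did not pass. DKK1 had 4.02 ± 0.158 and 3.41 ± 0.723 CPM (SD, n = 3) and did not pass either.

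Inside the cell, 8 of 20 tested Wnt pathway genes were higher and 0 lower (40% called), where 15.2% of all genes were higher and 15.5% lower. The median log2 fold change of the list was 0.07. BCL9, a β-catenin cofactor, rose the most with a log2 fold change of 0.46 (SE 0.06). The others were CSNK1G1 (0.33), AXIN1 (0.27), CTNNBIP1 (0.24), CSNK1A1 (0.23), PYGO2 (0.15), DVL3 (0.14) and DVL1 (0.14). They include both activating members, such as the Dishevelled genes, and members of the β-catenin destruction complex or inhibitors, such as AXIN1 and CTNNBIP1. β-Catenin itself (CTNNB1) had 115.4 ± 1.38 and 117.1 ± 2.54 CPM (SD, n = 3) and did not pass, nor did BCL9L (−0.02).

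Of the β-catenin target genes, 12 of 20 were tested, with 3 higher (NOTUM, EPHB2 and EPHB3) and 3 lower (CCND1, MYC and CD44). That is 50% called, beside 30.6% of all genes (15.2% higher and 15.5% lower), with a median log2 fold change of −0.13. Log2 fold changes were 0.75 for EPHB2 and 0.31 for EPHB3, against −0.85 for CCND1, −0.79 for CD44 and −0.24 for MYC. The value for EPHB2 had a SE of 0.25 and rests on 162 reads, with means of 0.76 CPM in si_NC and 1.28 CPM in si_GRB2. AXIN2, LEF1 and LGR5, commonly used readouts of Wnt/β-catenin signaling, had 2, 2 and 1 reads over the 6 libraries, so that no difference in them was detectable at this depth.

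**Figure D5:**
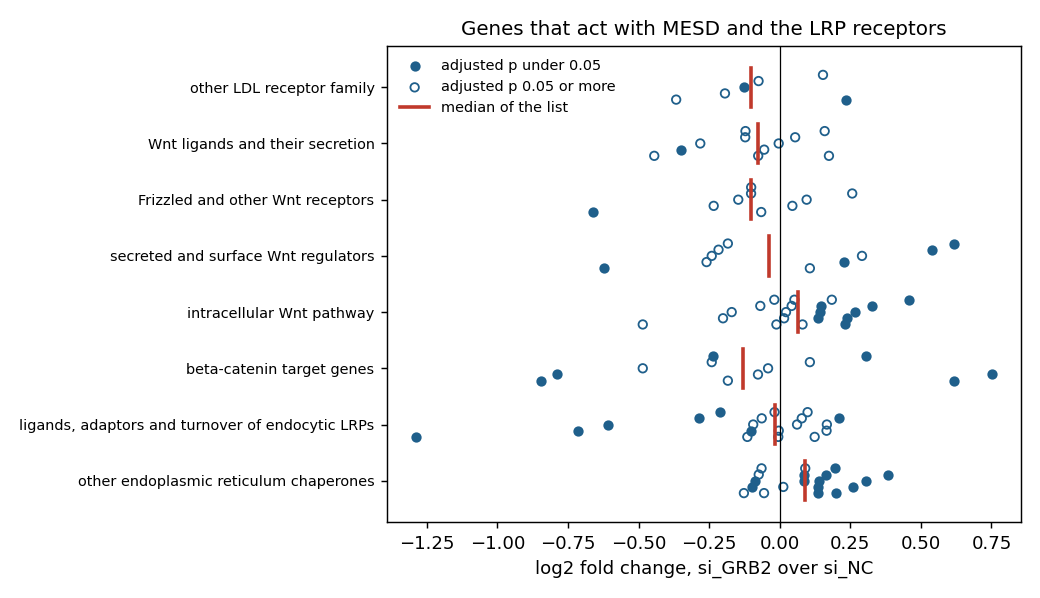
Log2 fold change of si_GRB2 over si_NC (x axis) for the tested genes of each list by function (rows). Filled points had an adjusted p under 0.05 from edgeR, open points did not, and red lines are list medians, which lie between −0.13 and 0.09.

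Of the ligands, adaptors and turnover genes of the endocytic receptors, 19 of 23 were tested, with 1 higher and 6 lower. That is 36.8% called, beside 30.6% of all genes (15.2% higher and 15.5% lower), with a median log2 fold change of −0.02. DAB2, a clathrin adaptor of LDL receptor family tails, fell to 7.34 ± 0.592 CPM in si_GRB2 (mean ± SD, n = 3), with a log2 fold change of −0.71 (SE 0.09, edgeR adjusted p = 1.66e-05). CLU, which encodes the ligand clusterin and was the most abundant gene of the list, fell from 1448 ± 12.9 to 1251 ± 18.4 CPM (mean ± SD, n = 3), with a log2 fold change of −0.21 (SE 0.02). APOE (−0.61), APBB1 (−0.29) and SHC1 (−0.10) also fell, and FURIN, a protease that cleaves LRP1 and other receptors, rose by 0.21. APP (−0.02) and AGRN (0.10) did not pass, and RELN, the ligand of LRP8 and VLDLR, had 7 reads over the 6 libraries.

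MESD was also set beside 19 other chaperones and folding enzymes of the endoplasmic reticulum, all of which were tested. Of these, 11 were higher and 2 lower in si_GRB2 (68.4% called, beside 30.6% of all genes), with a median log2 fold change of 0.09. The rises were small next to the 0.79 of MESD, from 0.09 for DNAJB11 and HSP90B1 to 0.38 for CNPY4. HSPA5, the Hsp70 chaperone BiP, rose from 617.1 ± 14.4 to 708.9 ± 14.3 CPM (mean ± SD, n = 3), with a log2 fold change of 0.20 (SE 0.03). CRELD2 (0.31), ERO1A (0.26), HYOU1 (0.19), P4HB (0.16), CALR (0.14), PDIA6 (0.14) and PDIA3 (0.13) rose as well. PDIA4 (−0.09) and DNAJC3 (−0.10) fell, and CANX, the most abundant of those not called, had a log2 fold change of −0.06. The quartiles of the log2 fold change over all tested genes were −0.14 and 0.143. The list median and the called HSP90B1, DNAJB11, PDIA3, PDIA6, CALR, PDIA4 and DNAJC3 lay between them. CNPY4, CRELD2, ERO1A, HSPA5, HYOU1 and P4HB lay above. Abundant genes such as P4HB (mean 1569 CPM, SE 0.02) can pass with small differences. Whether the share called exceeds that of equally abundant genes was not tested.

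The libraries held from 24810378 to 28532480 counted reads. Markers of SK-BR-3 were present, with ERBB2 at 3499 ± 74.9 CPM in si_NC and 4140 ± 132 CPM in si_GRB2 (SD, n = 3). The summed level of 8 luminal and HER2 markers ran from 17385 to 17772 CPM in si_NC and from 14537 to 15127 CPM in si_GRB2. Of the 7 tested markers, 5 were lower (GRB7, KRT8, KRT18, KRT19 and EPCAM), where 15.5% of all genes tested were lower. ERBB2 was higher, and ESR1, at a mean of 1.21 CPM, was not called. CDH1 had 9 reads over the 6 libraries and was not tested. Markers of blood cells (PTPRC and CD3E) had at most 14 reads each, and mesenchymal markers summed to between 4.17 and 6.13 CPM. Of the endothelial markers, PECAM1 had 3 reads, while CDH5 fell from 28.4 ± 1.14 to 18.5 ± 2.13 CPM (SD, n = 3). The part of these shifts in the results above was not tested. In bulk RNA, fewer cells of one kind and less RNA per cell cannot be told apart.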

How the data were processed

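Poly(A) RNA of 3 si_NC and 3 si_GRB2 libraries of SK-BR-3 cells was sequenced. The authors trimmed reads with FASTX-Toolkit, aligned them to GRCh38 with HISAT2 allowing 4 mismatches, and deposited the count of uniquely mapped reads per gene without normalization. The authors also deposited FPKM per gene, rounded to 2 decimals. The paper describes a library preparation with dUTP marking that keeps the strand of the RNA. The counting tool, whether the counting used strand, and the total behind the FPKM are not given in the sources used here. Counts that ignore strand cannot separate a gene from its antisense partner. Groups came from the sample descriptions.

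TMM scaling, the filterByExpr filter (15801 of 30327 genes kept) and the quasi-likelihood test glmQLFTest were run with edgeR 4.0.16 under R 4.3.3. The test compared si_GRB2 with si_NC without covariates, with Benjamini-Hochberg adjustment over all genes kept. The SE of a log2 fold change was obtained from the F statistic. The script was tested on simulated data. Nothing says whether libraries came from separate cultures, so p-values measure the spread between these libraries, which may be technical. Depth was 24810378 to 28532480 counted reads. Positions, lengths and overlaps came from GENCODE 44, and promoters from RefSeq.

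The members and lists were chosen with earlier results of these data known. Genes named were the members, GRB2, list genes that passed or were among the 3 most abundant of their list, the 5 nearest profiles and the 5 neighbors on each side. DKK1 and genes named for low reads or as examples fall outside that rule and were chosen after their values were seen. Alternatives were DESeq2 1.42.0, other scalings and filters, a replicate block, limma 3.58.1 on log2 FPKM (1 or 0.1 added first), and each library left out. Results of some genes of the lists are not reported here.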

Additional observations from a re-analysis of the deposited data

How the results depend on the processing

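LRP6 and LRP10 kept their direction and an adjusted p under 0.05 in all 15 alternatives, and LRP5 and VLDLR kept their direction and did not pass in any that tested them. The log2 fold change of MESD ran from 0.77 to 0.81 with each library left out, and was 0.69 with limma on log2(FPKM + 1), a scale that by construction understates changes of low values. The number of the 8 other genes called was 4. It was 2 with limma on log2(FPKM + 1), also among genes with a mean FPKM of at least 1, and 2 on log2(FPKM + 0.1), and ran from 2 to 4 with each library left out (2 without si_NC replicate 2, si_NC replicate 3, si_GRB2 replicate 1 or si_GRB2 replicate 2). LRP8 and LRPAP1 were the genes lost, and LRP8 was lost with DESeq2 as well (adjusted p = 0.0603, DESeq2). Over all genes, 4838 had an adjusted p under 0.05, and 2633, 2663 and 2709 under limma with a pseudocount of 1, of 0.1, and of 1 with the FPKM minimum. The limits of the study's methods gave 398 genes, and 95, 261 and 95 in the same order. The cause of these lower counts was not tested. With each library left out, these numbers ran from 3774 to 4420 and from 321 to 420. Wnt pathway genes called were 19, and from 15 to 19 with each library left out. With each library left out, LRP1 ran from −0.26 to 0.061, and it reversed without si_NC replicate 3 (0.061, edgeR adjusted p = 0.909), and on FPKM it had no difference. The order of levels was the same with reads per kilobase of merged exons. The FPKM of these genes are proportional to that measure, so the same order was fixed in advance and adds no support. Nothing says whether the replicate numbers pair the libraries. Correlations of deviations from the group means were 0.23, −0.09 and 0.08 for replicates 1, 2 and 3. Between unlike numbers they ran from −0.28 to 0.23. With 3 libraries per group the deviations are not independent, so these values cannot decide it. With the number as a replicate block, 3 of the other genes were called, LRP8 having an adjusted p of 0.0663 (edgeR), and 20 Wnt pathway genes. The median log2 fold change of all genes stayed between −0.01 and 0.04 under every alternative. Depth limits LRP1, LRP4 and VLDLR most.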
